A study of Mus musculus with 40 samples.

Results

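The transcripts of 10 antioxidant enzymes were followed in the livers of mice lacking Nampt in hepatocytes. The enzymes are the superoxide dismutases Sod1, Sod2, and Sod3, catalase (Cat), the glutathione peroxidases Gpx1 and Gpx4, the peroxiredoxins Prdx1, Prdx3, and Prdx5, and mitochondrial thioredoxin (Txn2). They were taken by name from a table of 55487 genes, and 10 of 10 were among the 20297 genes with enough counts to be tested.

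Hepatocyte-specific Nampt knockout (HNKO) mice carried 2 floxed Nampt alleles and 1 copy of Cre under the albumin promoter, which is active in hepatocytes. WT mice were their floxed littermates. All were female, of the C57BL/6JBomTac background, and 9 weeks old when they began to eat a purified diet (PD). Total RNA of whole liver, which holds hepatocytes together with bile duct, endothelial, stellate, and immune cells, was depleted of rRNA and sequenced after 3, 6, 12, and 21 days of PD, the labels giving these days as the age. Libraries are labelled as separate samples of a group and are taken here as 1 mouse each, with 5 WT and 5 HNKO at day 3, 4 and 5 at day 6, 5 and 6 at day 12, and 5 and 3 at day 21. HNKO libraries 17 and 18 of day 21, which the labels mark as failing quality control, were left out.

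Superoxide, a by-product of mitochondrial respiration and of several oxidases, is converted to hydrogen peroxide by superoxide dismutases, and the peroxide is then broken down by catalase, glutathione peroxidases, and peroxiredoxins. Peroxiredoxins regain their reducing power from thioredoxin and glutathione peroxidases from glutathione, and both of these are recharged with NADPH, a cofactor made from NAD. The liver holds much catalase in its peroxisomes, and each compartment of the hepatocyte has its own set of these enzymes.

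Total counts of the 38 libraries ranged from 16151037 to 64181492, with a median of 26466478.5. Nampt, which converts nicotinamide to an NAD precursor, ranged from 4.92 to 6.36 log2 CPM (counts scaled to the size of the library) in the 19 HNKO libraries and from 5.84 to 7.28 in the 19 WT libraries. It fell by 43.8% in HNKO over the 4 days (log2 fold change -0.83, SE 0.12), and the groups overlapped at day 6 only. At single days Nampt was called lower at days 3, 6, and 12 and not at day 21 (log2 fold change -0.69, adjusted p = 0.161). The summed level of 8 hepatocyte markers (Alb, Ttr, Apoa1, Apoc3, Cps1, Ass1, Fgb, and Tat), none of them at 0 in any group, had a median of 126358 CPM in WT and 93945.8 CPM in HNKO at day 3, 128710 and 90650.5 at day 6, 116797 and 101587 at day 12, and 110788 and 86234.5 at day 21. The ranges overlapped at days 3, 12, and 21 and not at day 6, where WT ran from 120611 to 132595 CPM and HNKO from 61749.1 to 110164. Summed over 6 cholangiocyte and oval cell markers (Krt19, Krt7, Epcam, Sox9, Spp1, and Cftr), the level had medians of 40.9 to 44.3 CPM in the WT groups and of 164 to 289 CPM in the HNKO groups. The ranges of these markers did not overlap at any day. The part of these shifts in the results on the enzymes was not tested, and in whole liver fewer hepatocytes and less RNA per hepatocyte cannot be told apart.

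All 10 genes lie on GRCm38. Sod1 (ENSMUSG00000022982.10, chr16:90220754-90226329, forward strand) encodes the copper-zinc enzyme of the cytosol and the space between the mitochondrial membranes, Sod2 (ENSMUSG00000006818.5, chr17:13006846-13040063, forward strand) the manganese enzyme of the mitochondrial matrix, and Sod3 (ENSMUSG00000072941.5, chr5:52363791-52371418, forward strand) the secreted enzyme. Cat (ENSMUSG00000027187.10, chr2:103453849-103485160, reverse strand) encodes catalase. Gpx1 (ENSMUSG00000063856.7, chr9:108338903-108340343, forward strand) and Gpx4 (ENSMUSG00000075706.10, chr10:80047166-80056439, forward strand) are selenoproteins, and Gpx4 reduces peroxides of membrane lipids. Prdx1 (ENSMUSG00000028691.12, chr4:116685544-116700822, forward strand) is mainly cytosolic, Prdx3 (ENSMUSG00000024997.7, chr19:60864051-60874556, reverse strand) mitochondrial, and Prdx5 (ENSMUSG00000024953.17, chr19:6906697-6910106, reverse strand) found in mitochondria, peroxisomes, and cytosol. Txn2 (ENSMUSG00000005354.16, chr15:77915047-77929006, reverse strand) encodes the thioredoxin of mitochondria, which reduces Prdx3. Reads can be shared with other genes for some of them, since 34.53% of the 51-base stretches of Gpx4, 20.82% of those of Sod2, 15.47% of Prdx5, 8.58% of Prdx1, 3.32% of Sod1, and 0.88% of Txn2 also occur in transcripts of another gene, against 0% for Sod3, Cat, Gpx1, and Prdx3. Prdx5 further overlaps Trmt112 on the opposite strand over 409 exonic bases, and Trmt112 had a median count of 179. The values of Gpx4, Sod2, and Prdx5 are therefore less certain than the others.

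Of the 10 genes, 9 had a promoter sequence in RefSeq (GRCm38.p6), Sod3 being the exception. The stretches before the start sites were searched on both strands for TGACNNNGC, the core of the antioxidant response element through which NRF2 acts, and for CCAAT, a general promoter element. The response element core was present in 10.2% of 32851 promoters over the 250 bases before the start, and among the enzymes it was present in Sod1, starting 56 bases before the start, and in Prdx1, 133 bases before it. Both sequences are shown, up to the edge of the annotated gene and with the core or its reverse complement in capitals, because Sod1 fell in HNKO livers whereas Prdx1 did not pass the test.
Sod1, chr16:90220512-90220753, forward strand: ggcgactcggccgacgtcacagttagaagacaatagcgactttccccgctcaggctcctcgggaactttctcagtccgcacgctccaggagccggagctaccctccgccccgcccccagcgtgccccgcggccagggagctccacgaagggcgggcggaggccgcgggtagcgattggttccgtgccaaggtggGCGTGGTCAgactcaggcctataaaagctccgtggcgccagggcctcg
Prdx1, chr4:116685349-116685543, forward strand: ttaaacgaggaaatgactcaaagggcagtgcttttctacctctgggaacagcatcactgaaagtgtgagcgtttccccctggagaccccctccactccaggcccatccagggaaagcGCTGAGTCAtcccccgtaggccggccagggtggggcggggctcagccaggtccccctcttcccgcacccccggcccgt

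CCAAT was present in 33.8% of all promoters. Cat had 4 copies, between 230 and 13 bases before its start, and Sod1, Sod2, and Txn2 had 1 copy each. Of the 5 genes that fell over the 4 days, Prdx5 alone had none, and Gpx4, which did not pass the test, had at least 1 copy in 3 of its 4 promoters. The Sod2 stretch and those of Gpx4 except the first lie inside the annotated gene. GGGCGG, the GC box, was present in 32.7% of all promoters. It was present in at least 1 promoter of each of the 9 genes except Gpx1, whether the gene fell or not. The Cat and Txn2 sequences are shown with CCAAT or its reverse complement in capitals, Cat for its copies and Txn2 as the gene with the largest fitted decrease. No promoter of the 9 genes held GTAAACA, a site of FOXO factors, or CACGTG, the E-box, which were present in 3.17% and 6.02% of all promoters.
Cat, chr2:103485161-103485403, reverse strand: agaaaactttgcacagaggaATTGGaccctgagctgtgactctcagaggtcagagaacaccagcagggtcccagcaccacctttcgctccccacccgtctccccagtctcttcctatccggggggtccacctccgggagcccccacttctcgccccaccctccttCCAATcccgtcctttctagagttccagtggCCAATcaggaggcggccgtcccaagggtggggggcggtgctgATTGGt
Txn2, chr15:77929007-77929244, reverse strand: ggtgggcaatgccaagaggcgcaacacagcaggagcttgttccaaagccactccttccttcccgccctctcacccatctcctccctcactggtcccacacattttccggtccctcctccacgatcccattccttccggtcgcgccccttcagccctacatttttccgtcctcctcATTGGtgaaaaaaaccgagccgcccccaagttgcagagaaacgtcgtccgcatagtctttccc

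Catalase was the most abundant of the enzyme transcripts in WT liver per length of merged exons. Its level was 9.98 ± 0.17 log2 CPM per kilobase (SD, n = 19 libraries), followed by Gpx1 at 9.58 ± 0.35, Prdx1 at 7.46 ± 0.28, and Sod1 at 6.98 ± 0.20. Prdx3 at 6.12 ± 0.28, Prdx5 at 5.85 ± 0.23, and Gpx4 at 5.67 ± 0.20 were next, and neither neighbouring pair among these differed by more than the larger SD. The lowest levels per kilobase were those of Txn2 at 4.49 ± 0.23, Sod2 at 4.05 ± 0.15, and Sod3 at 2.35 ± 0.22. The ranges of Gpx1 and Prdx1, of Gpx4 and Txn2, and of Sod2 and Sod3 did not overlap. Gene length matters for this order: with the mean length of the transcripts in place of the merged exons, 7 of 10 genes kept their place, Prdx3 moved from place 5 to 9, Gpx4 from 7 to 5, and Sod2 from 9 to 7.

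**Figure D1:**
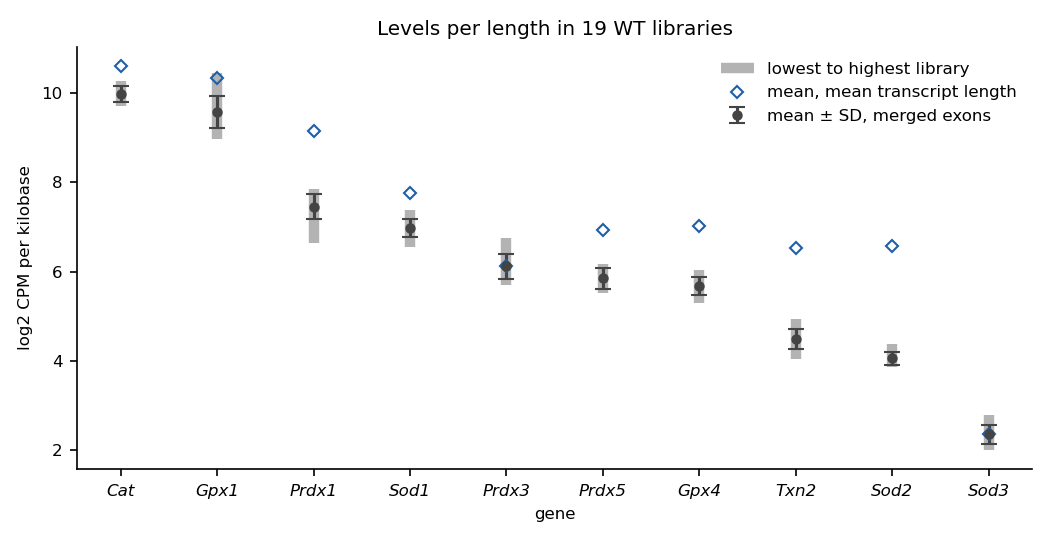
Level of each enzyme transcript in the 19 WT libraries, in log2 CPM per kilobase (y axis), ordered from the highest to the lowest. Points and bars give the mean ± SD over merged exons, grey bands the range, and open diamonds the mean with the mean transcript length, which lifts Prdx1 to 9.15 and Sod2 to 6.58.

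Transcripts of Txn2, Sod1, Cat, Sod2, and Prdx5 were lower in HNKO than in WT livers over the 4 days together, and Sod3 was higher. Genes with a Benjamini-Hochberg adjusted p under 0.05 in edgeR's quasi-likelihood test over all 20297 genes are called here. Over the 4 days, 5 of 10 enzymes were called lower and 1 higher, against 17.3% of all genes called lower and 19.2% higher. The median log2 fold change of the 10 enzymes was -0.21, and that of all genes -0.01. With scaling by total counts alone, which moved the median of all genes by 0.20, the log2 fold changes over the 4 days were -0.28 for Sod1, -0.15 for Sod2, 0.44 for Sod3, -0.26 for Cat, and -0.37 for Txn2, and these 5 were still called. Relative to the median of all genes under that scaling they were -0.47, -0.34, 0.25, -0.45, and -0.56. Gpx1, Gpx4, Prdx1, and Prdx3 were not called, although Gpx4 and Prdx3 were in an alternative fit given with each.

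At the level of single days, day 3 had 1 enzyme called lower (Prdx5), day 6 had 3 (Sod1, Cat, and Prdx5), day 12 had 2 (Sod1 and Txn2), and day 21 had 1 (Txn2). Of all genes, 1.71% were called lower and 2.95% higher at day 3, 4.37% and 8.42% at day 6, 3.27% and 4.56% at day 12, and 0.916% and 2.21% at day 21. The median log2 fold change of the enzymes was -0.27, -0.27, -0.17, and -0.09 at the 4 days in turn, beside 0.01, -0.01, 0.00, and -0.01 over all genes. With scaling by total counts alone the enzyme medians were -0.10, -0.06, 0.02, and 0.10, and those of all genes were 0.18, 0.20, 0.19, and 0.19, so that the sign at days 12 and 21 depends on the scaling while the enzymes stayed below all genes. No enzyme was called higher at any single day by edgeR with TMM scaling or by DESeq2, and 0 of 10 were higher at an unadjusted p under 0.05 with either tool. With scaling by total counts alone, edgeR called Sod3 higher at day 6 (log2 fold change 0.52, adjusted p = 0.0144) and at day 21 (0.52, adjusted p = 0.0428), where the median of all genes was moved by 0.21 at both days. With each library left out in turn, the number of enzymes called ran from 0 to 3 at day 3, 1 to 5 at day 6, 0 to 3 at day 12, and 0 to 2 at day 21, and the mice behind these moves are named with each enzyme.

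**Figure D2:**
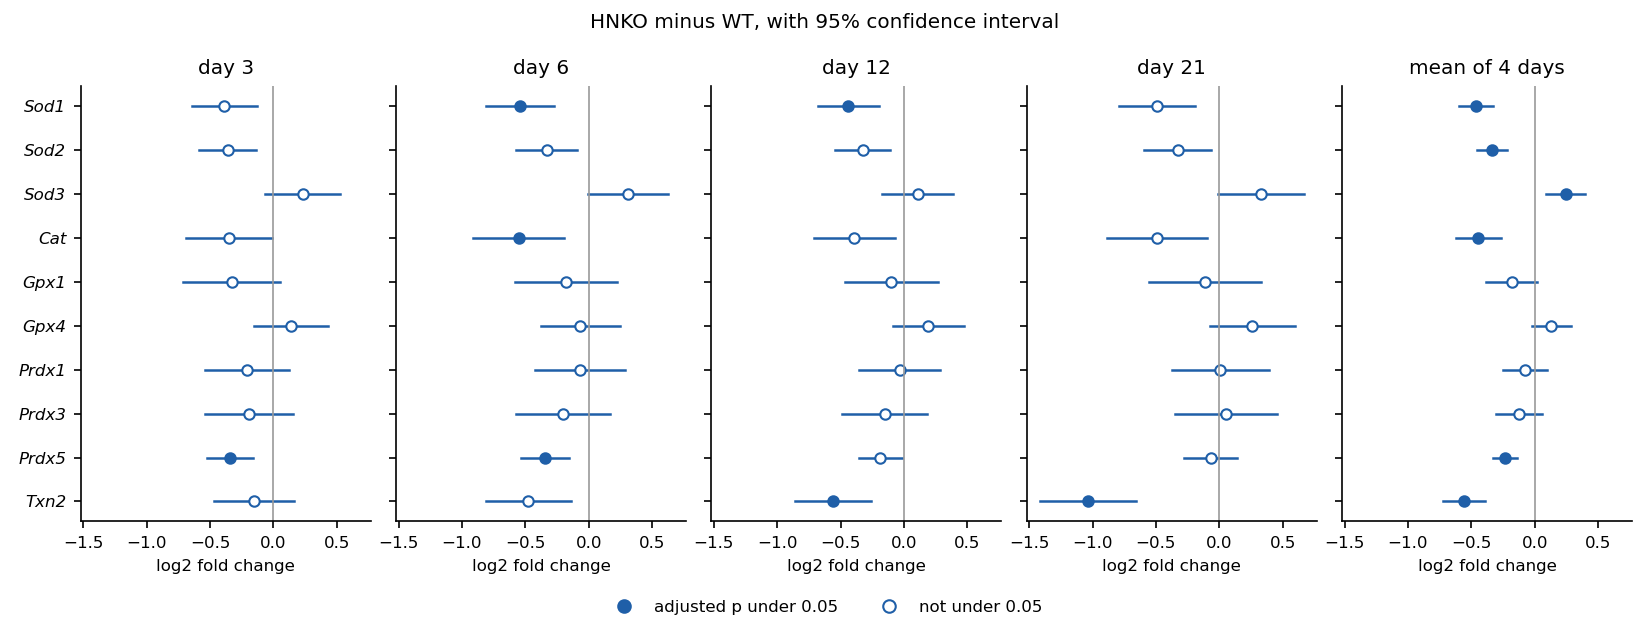
HNKO minus WT log2 fold change (x axis) of the 10 enzymes (y axis) at each day and as the mean of the 4 days, with 95% confidence intervals from edgeR. Filled points have an adjusted p under 0.05: the largest decrease is that of Txn2 at day 21 (-1.04), and Sod3 lies to the right of 0 in every panel.

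Libraries of the groups did not overlap, with HNKO below WT, for 2 enzymes at day 3 (Sod1 and Prdx5), 2 at day 6 (Sod1 and Sod2), 4 at day 12 (Sod1, Sod2, Cat, and Txn2), and the same 4 at day 21. The shares of all genes without overlap and with HNKO lower were 1.8%, 4.68%, 2.14%, and 6.7% at these days. The reverse, HNKO above every WT library, was seen for 0 of 10 enzymes at each day, against 2.31%, 8.08%, 2.65%, and 7.25% of all genes.

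Sod1 was the enzyme whose HNKO and WT libraries stayed apart at every day. At day 3 its level in log2 CPM was 8.92, 8.94, 9.05, 9.09, and 9.10 in WT and 8.44, 8.44, 8.64, 8.76, and 8.85 in HNKO livers. At day 6 it was 8.89, 9.04, 9.21, and 9.37 in WT and 8.18, 8.56, 8.62, 8.72, and 8.84 in HNKO. The highest HNKO library lay narrowly below the lowest WT library at both days. The WT values were 8.82, 8.88, 8.91, 9.11, and 9.24 at day 12, and HNKO had a lowest of 8.35, a median of 8.60, and a highest of 8.75. At day 21 the values were 8.54, 8.74, 8.75, 8.78, and 8.999 in WT and 7.84, 8.42, and 8.50 in HNKO. No overlap was seen at these days either, and both genotypes had their lowest library at day 21. Sod1 fell by 31.3% at day 6 (log2 fold change -0.54, SE 0.13, adjusted p = 0.00601) and by 26.3% at day 12 (log2 fold change -0.44, SE 0.12, adjusted p = 0.0217). At day 3 (log2 fold change -0.39, adjusted p = 0.064) and day 21 (-0.49, adjusted p = 0.0549) it missed the threshold. The two-sided exact permutation test gave p = 0.00794, 0.0159, 0.00216, and 0.0179 at days 3, 6, 12, and 21, the smallest that the design allows at days 3, 12, and 21. The mean decrease over the 4 days was 27.5% (log2 fold change -0.46, SE 0.07, adjusted p = 1.5e-06). The day 12 call was lost without WT library 15 or 16 or HNKO library 35 (adjusted p up to 0.0735), and calls were gained at day 3 without HNKO library 4 or 22 and at day 21 without WT library 39 or HNKO library 40 (adjusted p down to 0.0356 and 0.0432). Among 10 alternative settings, the day 6 call was lost with only the groups of the day (adjusted p = 0.0591) and the day 12 call with scaling by total counts (adjusted p = 0.0686). Sod1 was called at day 3 with the series of library numbers as a covariate (adjusted p = 0.0342) and with DESeq2 (adjusted p = 0.034), and at day 21 with DESeq2, all 40 libraries, and the edgeR 4 dispersion (adjusted p from 0.0287 to 0.0495).

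**Figure D3:**
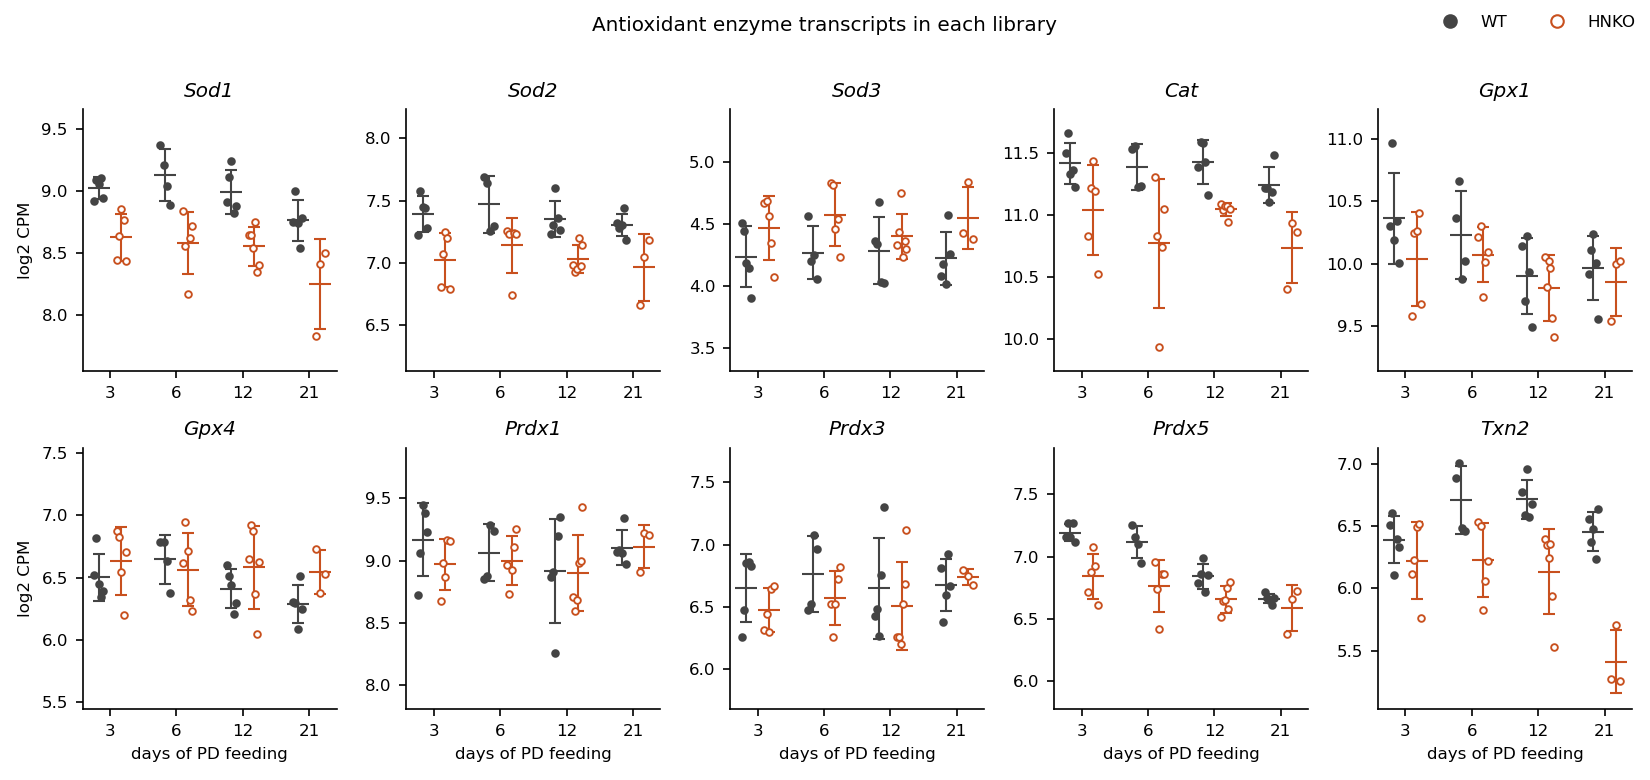
Level of each enzyme transcript (y axis, log2 CPM) by days of PD feeding (x axis) in WT (filled) and HNKO (open) libraries, 1 point per mouse, with the mean ± SD. Every panel spans the same height: Sod1 is separated at each day, Txn2 diverges most at day 21, and Prdx1 overlaps throughout.

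Sod2, the dismutase of the mitochondrial matrix, was lower in HNKO by a similar amount at each day and was called over the 4 days together. Its WT levels were 7.22, 7.28, 7.44, 7.45, and 7.57 log2 CPM at day 3, and those of HNKO were 6.79, 6.81, 7.07, 7.20, and 7.25. At day 6 they were 7.26, 7.30, 7.64, and 7.69 in WT and 6.75, 7.24, 7.24, 7.24, and 7.26 in HNKO, where 1 mouse (library 29) lay far below the other 4. The groups overlapped at day 3 only, where 4 of 5 HNKO libraries were below every WT library. At day 6 they were nearly level, with the highest HNKO library at 7.255 and the lowest WT library at 7.257. At day 12 the WT levels were 7.24, 7.26, 7.31, 7.36, and 7.60, and HNKO had a lowest of 6.93, a median of 6.98, and a highest of 7.20. At day 21 WT had 7.19, 7.28, 7.30, 7.32, and 7.44 and HNKO 6.67, 7.04, and 7.18. The gap at day 21 was also narrow, with 7.182 as the highest HNKO level and 7.188 as the lowest WT level. The fold changes at the 4 days lay close together, at -0.36, -0.33, -0.32, and -0.33 on the log2 scale. None was called (adjusted p = 0.0541, 0.0594, 0.0544, and 0.161), although exact permutation tests gave p = 0.0159, 0.00794, 0.00433, and 0.0179. The mean decrease was 20.8% (log2 fold change -0.34, SE 0.06, adjusted p = 3.05e-05) and was called in 9 of 9 alternative settings, with values from -0.34 to -0.15. At single days Sod2 was called at day 3 without WT library 1 or HNKO library 4 or 22, at day 6 without WT library 27 or 28, and at day 12 without HNKO library 32. It was also called at days 3, 6, and 12 with DESeq2 (adjusted p = 0.0284, 0.0472, and 0.0392), at day 3 with the series of library numbers as a covariate (adjusted p = 0.0434), and at day 12 with the edgeR 4 dispersion (adjusted p = 0.0493).

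Sod3, the secreted dismutase, was the enzyme that went the other way. Its level ranged from 3.90 to 4.68 log2 CPM in WT and from 4.08 to 4.83 in HNKO libraries, and the groups overlapped at each day. HNKO libraries above every WT library numbered 3 of 5, 2 of 5, 1 of 6, and 1 of 3 at the 4 days in turn. The daily log2 fold changes of 0.23, 0.31, 0.11, and 0.33 were not called (adjusted p from 0.193 to 0.683), whereas over the 4 days together Sod3 rose by 18.5% (log2 fold change 0.24, SE 0.08, adjusted p = 0.0109). The difference was above 0 in 7 of 7 within-series comparisons described below, and leaving out any library kept the call over the 4 days.

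Catalase, the peroxisomal enzyme, fell by about as much as Sod1, with its widest spread between mice in HNKO livers at day 6. Its WT levels at day 3 were 11.23, 11.33, 11.36, 11.49, and 11.66 log2 CPM and its HNKO levels 10.52, 10.83, 11.19, 11.21, and 11.44. At day 6 they were 11.22, 11.23, 11.53, and 11.55 in WT and 9.94, 10.74, 10.83, 11.05, and 11.31 in HNKO. At both days the groups overlapped through 1 HNKO library, and the lowest HNKO libraries, 23 at day 3 and 29 at day 6, were far below WT. The WT values at day 12 were 11.16, 11.39, 11.43, 11.58, and 11.59, and HNKO had a lowest of 10.95, a median of 11.06, and a highest of 11.09. At day 21 WT had 11.10, 11.19, 11.22, 11.22, and 11.48 and HNKO 10.41, 10.87, and 10.94. The groups were apart at these days, and the 6 HNKO livers of day 12 lay within a narrow band. Cat was called at day 6, with a decrease of 31.9% (log2 fold change -0.55, SE 0.18, adjusted p = 0.0329), and not at days 3, 12, or 21 (log2 fold changes -0.35, -0.39, and -0.49, adjusted p = 0.223, 0.119, and 0.161). The exact permutation p was 0.0635, 0.0556, 0.00216, and 0.0179 at the 4 days, the smallest possible at days 12 and 21. Over the 4 days together Cat fell by 26.6% (log2 fold change -0.45, SE 0.09, adjusted p = 0.000132). The call at day 6 was lost without WT library 8 or 10 or HNKO library 7, 29, or 30 (adjusted p up to 0.165) and in 3 of 10 alternative settings (adjusted p up to 0.188). Over all 9 fits with a library left out, the log2 fold change ran from -0.70 to -0.37.

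The glutathione peroxidases were not called at any day or over the 4 days in the fit used throughout. Gpx1, the abundant selenoprotein that reduces hydrogen peroxide, ranged from 9.49 to 10.97 log2 CPM in WT and from 9.41 to 10.41 in HNKO, with overlap at each day. Its mean log2 fold change was -0.18 (SE 0.10, 95% confidence interval -0.38 to 0.02, adjusted p = 0.155). Gpx4 ranged from 6.09 to 6.82 in WT and from 6.05 to 6.95 in HNKO. The mean log2 fold change of Gpx4 was 0.13 (SE 0.08, interval -0.02 to 0.28, adjusted p = 0.181), with daily values of 0.14, -0.07, 0.19, and 0.26. Gpx4 was called higher over the 4 days with the series of library numbers, described below, as a covariate (log2 fold change 0.16, adjusted p = 0.0384) and with scaling by total counts (0.33, adjusted p = 0.00142). A decrease of Gpx1 by up to 0.38 and a rise of Gpx4 by up to 0.28 lie within these intervals.

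Prdx5, the peroxiredoxin with the widest distribution among compartments, was called lower in HNKO at days 3 and 6. Its difference was not shown to change over the days (edgeR test of the interaction of genotype and day, unadjusted p = 0.143). At day 3 WT livers had 7.12, 7.16, 7.16, 7.27, and 7.27 log2 CPM and HNKO livers 6.62, 6.72, 6.88, 6.93, and 7.08. At day 6 WT had 6.95, 7.10, 7.16, and 7.26 and HNKO 6.42, 6.74, 6.86, 6.86, and 6.95. The groups were apart at day 3, and at day 6 HNKO library 6 reached the lowest WT library. At day 12 WT had 6.72, 6.79, 6.85, 6.86, and 6.99 and HNKO a lowest of 6.51, a median of 6.65, and a highest of 6.80. At day 21 WT had 6.61, 6.65, 6.67, 6.67, and 6.71 and HNKO 6.38, 6.66, and 6.72. The groups overlapped at both later days, and at day 21 the highest library was an HNKO library. Prdx5 fell by 21.2% at day 3 (log2 fold change -0.34, SE 0.09, adjusted p = 0.0225) and by 21.1% at day 6 (log2 fold change -0.34, SE 0.09, adjusted p = 0.0134). It was not called at day 12 (log2 fold change -0.19, adjusted p = 0.165) or day 21 (-0.07, adjusted p = 0.797), and exact permutation tests gave p = 0.00794, 0.0238, 0.0195, and 0.446 at days 3, 6, 12, and 21. The mean over the 4 days was a decrease of 15% (log2 fold change -0.24, SE 0.05, adjusted p = 0.000144). With scaling by total counts alone, which moved the median of all genes by 0.20, this mean became -0.05 (adjusted p = 0.279), or -0.24 relative to the median of all genes under that scaling. The day 3 call was lost without WT library 5 or 25 or HNKO library 2 or 23 (adjusted p up to 0.094) and the day 6 call without WT library 8 or HNKO library 29 (adjusted p up to 0.102). Each of these calls was also lost in 3 of 10 alternative settings (adjusted p up to 0.0807 at day 3 and 0.166 at day 6).

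Prdx1 and Prdx3, a cytosolic and a mitochondrial peroxiredoxin, were not called in any comparison of the genotypes in the fit used throughout. Prdx1 ranged from 8.26 to 9.45 log2 CPM in WT and from 8.60 to 9.43 in HNKO, and Prdx3 from 6.26 to 7.30 and from 6.20 to 7.11. Both overlapped between genotypes at each day. Their mean log2 fold changes were -0.08 (SE 0.09, interval -0.25 to 0.10) and -0.12 (SE 0.09, interval -0.31 to 0.06), with adjusted p = 0.53 and 0.305. With the series of library numbers, described below, as a covariate, Prdx3 was called lower over the 4 days (log2 fold change -0.18, adjusted p = 0.0112) and Prdx1 was not (-0.13, adjusted p = 0.0982). Libraries differ in how expression depends on the GC content of genes, and over the 38 libraries the deviation of Prdx1 from its group mean correlated with this slope at r = -0.78 and rho = -0.84 (adjusted permutation p = 0.0002 and 0.0002, r = -0.77 without the 2 farthest libraries). For Prdx3 the values were r = -0.65 and rho = -0.69 (adjusted permutation p = 0.00107 and 0.0004, r = -0.65 without the 2 farthest libraries). These p-values were adjusted over 20 relations, of the 10 enzymes with the slope and with the total count. Taken within the series of library numbers described below, r was -0.41 and -0.57 for Prdx1, and -0.14 and -0.09 for Prdx3, so that the latter relation did not hold within series. With this trend removed, a setting chosen after seeing the data, neither was called.

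Txn2, the thioredoxin that keeps mitochondrial peroxiredoxin reduced, had the largest fitted decrease of the 10 enzymes. At day 3 WT livers had 6.10, 6.33, 6.40, 6.51, and 6.60 log2 CPM and HNKO livers 5.76, 6.12, 6.23, 6.49, and 6.51. At day 6 WT had 6.46, 6.49, 6.88, and 7.004 and HNKO 5.83, 6.06, 6.22, 6.50, and 6.53. The groups overlapped at both days, and at day 3 they did so for 4 of 5 HNKO libraries. At day 12 WT had 6.57, 6.59, 6.68, 6.78, and 6.96 and HNKO a lowest of 5.53, a median of 6.29, and a highest of 6.39. At day 21 WT had 6.23, 6.37, 6.47, 6.56, and 6.64 and HNKO 5.26, 5.27, and 5.71. The groups no longer overlapped at these days, and the gap between the lowest WT and the highest HNKO library was widest at day 21. Txn2 fell by 32.1% at day 12 (log2 fold change -0.56, SE 0.15, adjusted p = 0.0193) and by 51.2% at day 21 (log2 fold change -1.04, SE 0.19, adjusted p = 0.00273). It was not called at day 3 (log2 fold change -0.15, adjusted p = 0.623) and lay at the threshold at day 6 (-0.48, adjusted p = 0.0507). Exact permutation tests gave p = 0.365, 0.0794, 0.00216, and 0.0179 at days 3, 6, 12, and 21, the last 2 being the smallest that the numbers of mice allow. Over the 4 days together the decrease was 32% (log2 fold change -0.56, SE 0.08, adjusted p = 2.82e-06). The day 21 call, which rests on 3 HNKO mice, was kept in 10 of 10 alternative settings, with log2 fold changes from -1.04 to -0.69, and lost without HNKO library 37 (adjusted p = 0.106). The value of -0.69 was that of all 40 libraries, where the groups overlapped, since HNKO library 17, which failed quality control, had a Txn2 level of 6.28 log2 CPM and WT library 39 one of 6.26. The day 12 call was lost without WT library 16 or HNKO library 35 (adjusted p up to 0.0572), and in 2 of 10 alternative settings, all 40 libraries and only the groups of the day (adjusted p = 0.0579 and 0.0539). A day 6 call was gained without WT library 27 or 28 or HNKO library 6 or 7, and with DESeq2, the edgeR 4 dispersion, the series of library numbers as a covariate, and the GC trend removed (adjusted p from 0.0279 to 0.0481).

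The difference between the genotypes was not shown to change over the days for any enzyme. An interaction of genotype and day was called for 0 of 10 enzymes and 0% of all genes with edgeR. At an unadjusted threshold of 0.05, 1 enzyme and 966 of all genes passed, and the enzyme was Txn2 (adjusted p = 0.915). DESeq2 called 0 of the enzymes and 16 genes in all. Within WT livers, Prdx5 was the enzyme whose level changed over the days (adjusted p = 0.000301), falling from a mean of 7.19 log2 CPM at day 3 to 7.11, 6.84, and 6.66 at days 6, 12, and 21, and 5.84% of all genes changed. Within HNKO livers it was Txn2 (adjusted p = 0.0126), with means of 6.22, 6.23, 6.13, and 5.41 at the 4 days in turn, against 7.9% of all genes. The Txn2 result within HNKO was lost without library 37 or 40 of day 21 (adjusted p up to 0.0983) and with all 40 libraries (adjusted p = 0.161).

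The labels number the libraries from 1 to 41, and numbers 1 to 21 and 22 to 41 each run through the 4 days. Within these series, 7 comparisons of HNKO with WT could be made, since the HNKO libraries of day 21 that were kept all lie in the second. Sod1, Sod2, Cat, Prdx1, Prdx3, Prdx5, and Txn2 were lower in HNKO in 7 of 7, and Sod3 was higher in 7 of 7. Sod1 differed by -0.59 to -0.35 log2 CPM, Sod2 by -0.43 to -0.20, Cat by -0.65 to -0.27, Prdx5 by -0.41 to -0.05, and Txn2 by -1.02 to -0.14. The other peroxiredoxins stayed nearer to 0, Prdx1 between -0.19 and -0.01 and Prdx3 between -0.33 and -0.01. Gpx1 was lower in 6 of 7 and Gpx4 higher in 5 of 7.

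The GC slope of the libraries also correlated with other enzymes, and the part of this slope in their values was not tested further than by removing its trend. Over the 38 libraries Sod3 had r = 0.54 and rho = 0.51 (adjusted permutation p = 0.00884 and 0.0138, r = 0.50 without the 2 farthest libraries), Txn2 had r = 0.58 and rho = 0.53 (adjusted permutation p = 0.0046 and 0.0126, r = 0.50 without the 2 farthest libraries), and Gpx4 had r = 0.65 and rho = 0.71 (adjusted permutation p = 0.00107 and 0.0003, r = 0.73 without the 2 farthest libraries). Within the series of library numbers, r was 0.05 and 0.06 for Sod3, 0.23 and 0.33 for Txn2, and 0.60 and 0.16 for Gpx4, so that the relation of Sod3 did not hold within series. Over all 38 libraries r was 0.08 for Cat, 0.03 for Sod1, -0.11 for Sod2, and -0.05 for Prdx5. Within series it was -0.54 and -0.41 for Cat and -0.39 and -0.32 for Sod1. For Sod2 it was -0.05 and -0.47 and for Prdx5 -0.33 and -0.29, and r within series was not tested. The median slope per 10 percentage points of GC was -0.032 in WT and 0.013 in HNKO at day 3. At days 6, 12, and 21 it was 0.003 and 0.064, -0.036 and 0.081, and -0.052 and -0.052. With the trend removed, Sod3 and Txn2 were still called over the 4 days.

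Sod1, Sod2, Cat, and Prdx5 varied together from mouse to mouse within groups, and the pairs with the highest r among them are given here. Over the deviations of the 38 libraries from their group means, Sod2 and Prdx5 had r = 0.84 and rho = 0.81, adjusted permutation p = 0.000112 and 0.000225, Cat and Prdx5 had r = 0.81 and rho = 0.70, adjusted permutation p = 0.000129 and 0.000506, and Sod1 and Prdx5 had r = 0.81 and rho = 0.77, adjusted permutation p = 0.000112 and 0.0003, with p-values permuted within groups and adjusted over all 45 pairs. Without the 2 libraries farthest from the median, r was 0.78, 0.73, and 0.73, and with deviations taken within the series of library numbers it was 0.77 and 0.85, 0.85 and 0.84, and 0.79 and 0.87 for the 3 pairs. All of these relations held. Correlation was not particular to the enzymes that fell, since Gpx1, which was not called, had r = 0.68 and rho = 0.64, adjusted permutation p = 0.00025 and 0.0013 with Sod2, and r = 0.68 and rho = 0.67, adjusted permutation p = 0.000129 and 0.00036 with Txn2 (0.65 and 0.69 without 2 libraries, 0.72 and 0.82 and 0.61 and 0.57 within series). Txn2 had r = 0.66 and rho = 0.69, adjusted permutation p = 0.000129 and 0.000506 with Cat, and r = 0.63 and rho = 0.62, adjusted permutation p = 0.00104 and 0.00225 with Sod1 (0.60 and 0.60 without 2 libraries, 0.49 and 0.58 and 0.41 and 0.64 within series). Txn2 also correlated with Sod2 (r = 0.45 and rho = 0.44, adjusted permutation p = 0.0272 and 0.0346) and with Prdx5 (r = 0.47 and rho = 0.45, adjusted permutation p = 0.0272 and 0.0346), with r of 0.37 and 0.30 without 2 libraries and of 0.74 and 0.37 for Sod2 and 0.56 and 0.46 for Prdx5 within series. Prdx1 and Prdx3 formed a pair of their own, with r = 0.88 and rho = 0.87, adjusted permutation p = 0.000112 and 0.000225 (0.87 without 2 libraries, 0.57 and 0.72 within series). Txn2 ran against Prdx3, with r = -0.58 and rho = -0.57, adjusted permutation p = 0.00132 and 0.00239, but within series r was 0.07 and -0.33, so that this relation did not hold in the series of lower numbers. Sod3 and Prdx1 had r = -0.56 and rho = -0.51, adjusted permutation p = 0.0027 and 0.00729, with -0.47 and 0.30 within series, so that this relation did not hold in the series of higher numbers.

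**Figure D4:**
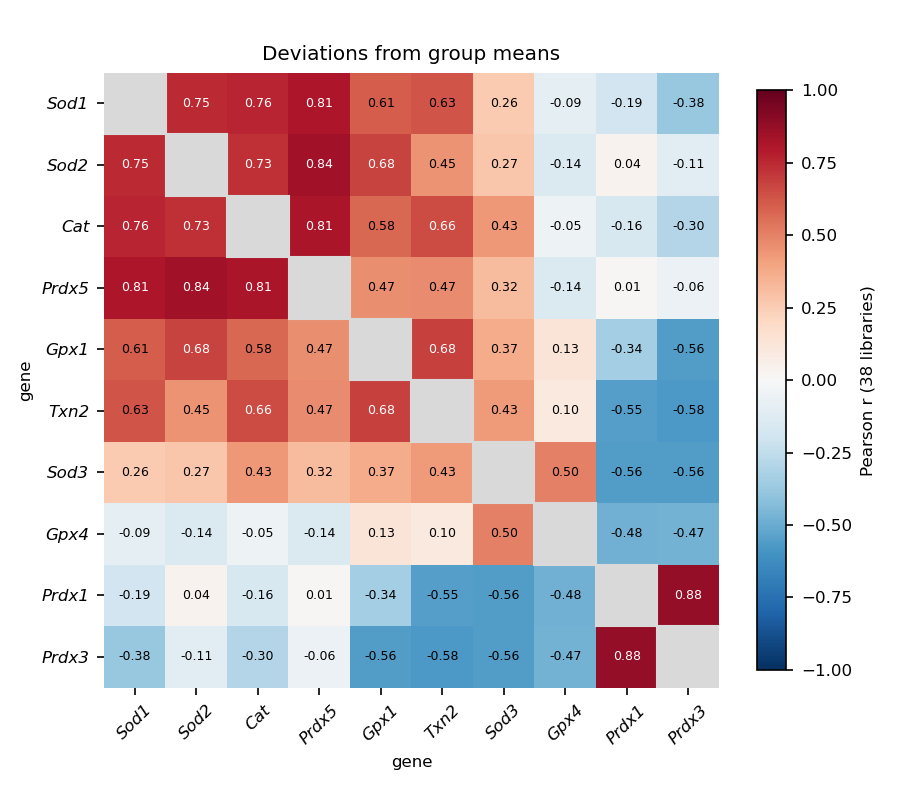
Pearson r between the enzyme transcripts (both axes) over the deviations of 38 libraries from the means of their genotype and day, from blue (negative) to red (positive). Sod1, Sod2, Cat, and Prdx5 form a block with r from 0.73 to 0.84, and Prdx1 and Prdx3 (0.88) stand apart from it.

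The genes whose deviations were most like those of each enzyme, among 12599 genes whose mean reached 1 log2 CPM, were ranked by Pearson r over the 38 libraries and are given as a description. For Cat they were Serpina1d (0.95), Aldh8a1 (0.94), and Apoa2 (0.92), the last encoding a lipoprotein of hepatocytes. For Sod1 they were F2 (0.89), which encodes prothrombin, Mrpl15 (0.89), and Akr1c12 (0.89), and for Sod2 they were Pbld2 (0.91), Gcdh (0.90), and Ugt1a6a (0.90). Prdx5 was nearest to Atp5a1 (0.88), Aldh8a1 (0.87), and Sdhb (0.86), where Atp5a1 and Sdhb encode subunits of mitochondrial ATP synthase and succinate dehydrogenase. Txn2 was nearest to Poldip2 (0.90), Plg (0.88), which encodes plasminogen, and Prcc (0.87). Gpx1 was nearest to Saa4 (0.89), Igfbp4 (0.89), and Msrb1 (0.87), and Gpx4 to Igfbp7 (0.83), Hexa (0.82), and Psmd8 (0.81). Prdx1 was nearest to Ghitm (0.94), Tmed7 (0.92), and Cnih1 (0.92), and Prdx3 to Pgk1 (0.92), Get4 (0.91), and Focad (0.90). The likeness was weakest for Sod3, with mt-Tl1 (0.79), Gm26397 (0.79), and Arsb (0.78). These deviations were from the means of genotype and day and not taken within the series of library numbers. The part of the series in these values was not tested.

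The partners of these enzymes were read from lists of the same pathways, with the mean effect over the 4 days and up to 3 genes of each list named by their smallest p. Every count of these lists stands against 19.2% of all genes called higher and 17.3% lower over the 4 days. Of 7 other glutathione peroxidases and peroxiredoxins, 4 were called higher and 1 lower, with a median of 0.33. Gpx3, the plasma form, rose by 1.13 on the log2 scale (SE 0.18). Gpx2, the epithelial form, rose by 2.79 (SE 0.54) at very low counts. It had 0 to 4 counts per library in WT, 1 to 33 in HNKO, and 152 in all. With WT libraries below the minimum count of the filter, Gpx2 can have passed only through HNKO libraries, where it is high. Its place among the 4 called higher rests on this selection, and the size of its rise on WT counts near 0. Prdx6, a peroxiredoxin that uses glutathione, fell by 0.35 (SE 0.07).

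Of 16 genes of the thioredoxin and glutaredoxin system, 7 were called lower and 1 higher, beside 17.3% and 19.2% of all genes, with a median of -0.16. Glrx, the cytosolic glutaredoxin, fell by 0.37, Glrx5, which serves mitochondrial iron-sulfur cluster assembly, by 0.38, and Glrx3 by 0.18. Of 9 genes of glutathione synthesis and reduction, 2 were called higher and 2 lower, which is near the shares of all genes, with a median of -0.10. The cystine transporter Slc7a11 rose by 3.98 (SE 0.51), also at low counts, with 0 to 12 per library in WT and 0 to 279 in HNKO. With WT libraries near or below the minimum count of 10, it may have passed the filter only through HNKO libraries, where it is high. Glutathione synthetase, Gss, rose by 0.33, whereas Oplah, which returns 5-oxoproline to the cycle, fell by 0.24. NADPH supply held 10 tested genes, of which 6 were called lower and 0 higher, with a median of -0.32. Nadk2, the mitochondrial NAD kinase, fell by 0.37, Mthfd1 of folate metabolism by 0.38, and cytosolic isocitrate dehydrogenase, Idh1, by 0.30.

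Of 11 tested genes that supply metal cofactors or make selenoproteins, 7 were called lower and 0 higher, beside 17.3% and 19.2% of all genes, with a median of -0.26. Scly, which recycles selenium, fell by 0.35, the selenocysteine synthase Sepsecs by 0.36, and the copper transporter Slc31a1 by 0.32. Of 12 tested sources of superoxide or peroxide, 6 were called higher and 4 lower, beside 19.2% and 17.3% of all genes, with a median of 0.33. Ncf1 and Cybb, which encode parts of the NADPH oxidase of phagocytes, rose by 0.85 and 0.60. Of 12 regulators of antioxidant genes, 9 were called lower and 0 higher, with a median of -0.22. Tfam, a factor of mitochondrial DNA transcription, fell by 0.33, the mitochondrial deacylase Sirt3 by 0.36, and Keap1, the repressor of NRF2, by 0.19. Of 6 macrophage markers, 4 were called higher (Cd68, Csf1r, Lyz2, and Trem2), whereas Adgre1 and Clec4f were not called. The summed level of all 6 had a median of 418 CPM in WT and 418 CPM in HNKO at day 3. The medians were 404 and 612 CPM at day 6, 266 and 363 at day 12, and 347 and 424 at day 21. The ranges of this sum overlapped at each day. Of the 8 hepatocyte markers, 3 were called lower and 0 higher, with a median of -0.25, beside -0.21 for the enzymes. At days 3, 6, 12, and 21 the marker medians were -0.20, -0.46, -0.15, and -0.26, beside -0.27, -0.27, -0.17, and -0.09 for the enzymes. At single days the hepatocyte markers were called at day 6 only, where 3 of 8 were lower, against 4.37% of all genes. Of 6 markers of stellate cells and myofibroblasts 5 were called higher (median 1.04), of 4 tested neutrophil markers 4 (median 1.80), and of 4 smooth muscle markers 2 (median 0.64). These counts have the same shares of all genes as their background. The smooth muscle markers called were Des and Tagln, and Des is also among the stellate cell markers called. Of 5 endothelial markers 1, Kdr, was called lower, near the share of all genes, and 0 of 5 lymphocyte and 0 of 5 erythroid markers were called. The part of these shifts in the values of the enzymes and of their partners was not tested.

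**Figure D5:**
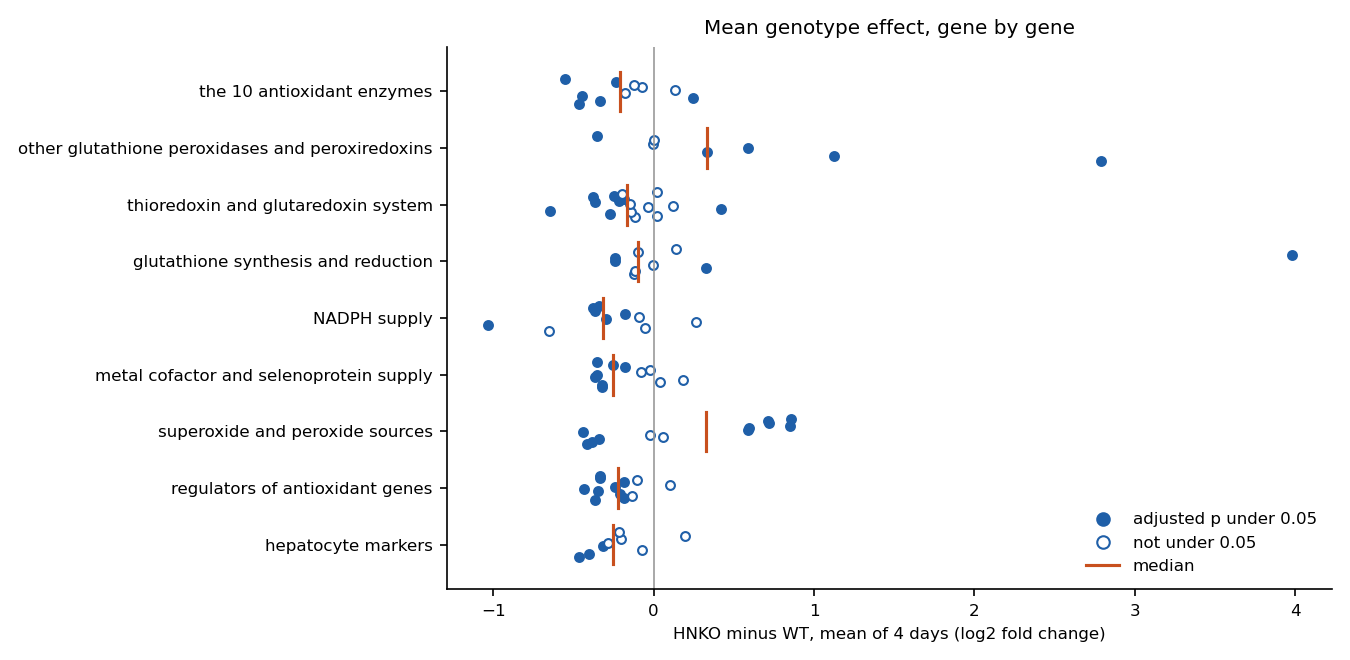
Mean genotype effect over the 4 days (x axis, HNKO minus WT log2 fold change) for each tested gene of the enzymes, of 7 pathway lists, and of the hepatocyte markers (y axis), with list medians as orange lines. Filled points have an adjusted p under 0.05. Slc7a11 (3.98) and Gpx2 (2.79), both of low counts, lie far to the right, while the enzyme median (-0.21) and the hepatocyte marker median (-0.25) lie to the left of 0.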

How the data were processed

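The authors aligned 51-base paired reads to GRCm38 (STAR 2.7.2b) and counted fragments whose ends both aligned on genes of GENCODE M22 (featureCounts 1.6.4), and the raw counts they deposited cover 40 libraries in 1 table. The submitters' processing notes also name edgeR 3.26.0. How strand was used in counting is not given in the sources used here. The table holds 0 columns of no mapped sample.

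Here, 38 libraries of 8 groups were fitted together with edgeR 4.0.16 in R 4.3.3 (TMM scaling, quasi-likelihood test with the legacy dispersion, 1 mean per genotype and day), after filterByExpr (minimum count 10, total 15, proportion 0.7), which left 20297 genes. The Benjamini-Hochberg adjustment ran over these genes, with a threshold of 0.05. Standard errors are those that the test statistic implies. Log2 CPM used a prior count of 2. Single genes were also compared at each day by two-sided exact permutation tests of the difference of mean log2 CPM. Where libraries were not from separate mice, p-values would measure technical spread. The lowest chi-square per gene among 74 pairs within groups was 12.3, and no library repeated another within sampling noise. Total counts were 16151037 to 64181492 per library, and together with 3 to 6 libraries per group and the spread between them they set the standard errors. The script was tested on simulated data with known changes.

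The 10 enzymes and the lists of pathway and marker genes were chosen with earlier results of these data known. All 10 enzymes are named, as are the 3 genes of each pathway list with the smallest p over the 4 days and the 3 genes most like each enzyme, except for 1 gene that is not reported here. Nnt, Slc30a10, and Lrp8 were not analysed here, and Dao, Mpo, and Elane did not pass the filter on low counts. Gene positions, lengths, and shared 51-base stretches were taken from GENCODE M21 on GRCm38, and promoters from RefSeq (GRCm38.p6). The alternatives were DESeq2 size factors, scaling by total counts, DESeq2 1.42.0, 2 other filters on low counts, all 40 libraries, the edgeR 4 dispersion, the series of library numbers as a covariate, fits of the 2 groups of a day alone, each library left out, and, chosen after seeing the data, removal of each library's GC trend.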

Additional observations from a re-analysis of the deposited data

Results flagged for a closer look

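In 70 groups of 4 to 6 libraries, the distance of the lowest or highest library from its neighbour was set against the range of the group, a comparison by which chance alone picks out about 1 in 20 groups, and 2 groups were picked out. Sod2 in HNKO at day 6 had a lowest level of 6.75 log2 CPM in library 29, with the next library at 7.24. Cat in HNKO at day 12 had a lowest level of 10.95 log2 CPM in library 35, with the next at 11.04.

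Of the 2 HNKO libraries of day 21 that failed quality control and entered only the fit of all 40 libraries, library 18 had a Gpx4 level of 6.78 log2 CPM, above every WT library of that day (highest 6.54), and library 17 had a Prdx5 level of 6.76, above every WT library (highest 6.71). For both, the scaling was set over all 40 libraries.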

How the results depend on the processing

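No paired analysis was possible because each library number occurs in a single group. The depth and the 3 to 6 mice per group limit the daily comparisons, in which several adjusted p lay close to the threshold. Over the 4 days, Sod1, Sod2, Sod3, Cat, and Txn2 kept their direction and their call in 9 of 9 alternatives, and Prdx5 in 8 of 9, and all 6 did so in 38 of 38 fits with a library left out. Calls over the 4 days were gained by Prdx3 (lower) and Gpx4 (higher) with the series of library numbers as a covariate, which gave 8 enzymes, and by Gpx4 with scaling by total counts, where Prdx5 was lost.

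The number of enzymes called moved by more than 1.5 times as follows. At day 3 (1 in the report), it was 0 with scaling by total counts, 0 with no filter beyond 1 count, 0 with only the groups of the day, 3 with DESeq2, and 3 with the series of library numbers as a covariate. At day 6 (3), it was 5 with DESeq2, 1 with no filter, and 0 with only the groups of the day, and with scaling by total counts it stayed at 3 with Sod3 called higher (adjusted p = 0.0144) and Prdx5 lost. At day 12 (2), it was 1 with scaling by total counts, with all 40 libraries, and with only the groups of the day. At day 21 (1), it was 2 with scaling by total counts, where Sod3 was called higher (adjusted p = 0.0428), and 2 with DESeq2, all 40 libraries, and the edgeR 4 dispersion. The day effect in HNKO (1) was called for 0 enzymes with all 40 libraries. With each library left out, the counts ran from 0 to 3, 1 to 5, 0 to 3, and 0 to 2 at days 3, 6, 12, and 21, and from 0 to 1 for the day effect in HNKO. The libraries behind these moves were 1, 2, 4, 5, 22, 23, and 25 at day 3, 8, 27, 28, and 29 at day 6, 15, 16, and 35 at day 12, and 37, 39, and 40 at day 21. The causes were not tested.

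Signs turned only in comparisons of an enzyme that were not called in the report. Scaling by total counts moved the median of all genes by 0.17 to 0.21 at each day, and 92.5% to 95.4% of calls were then higher, against 58.2% to 70.7% in the report. With no filter beyond 1 count, 66.9% to 81.1% of calls at single days were higher. The share was 63% to 79.7% with only the groups of the day and 64% to 75.9% with the GC trend removed. With scaling by total counts the log2 fold change was 0.0023 for Txn2 at day 3, 0.027, 0.088, 0.071, and 0.0045 for Gpx1 at days 6, 12, and 21 and over the 4 days, 0.15 for Gpx4 at day 6, 0.13, 0.15, and 0.11 for Prdx1 at days 6 and 12 and over the 4 days, 0.038 and 0.070 for Prdx3 at day 12 and over the 4 days, and 0.0083 and 0.13 for Prdx5 at days 12 and 21. At day 21 it was -0.013 for Prdx1 and -0.17 for Prdx3 with all 40 libraries, and 0.081 for Gpx1, -0.22 for Prdx1, and -0.21 for Prdx3 with the series as a covariate. With the GC trend removed it was 0.042 for Prdx1 at day 12. With 1 library left out it ran from -0.17 to 0.017 for Gpx4 and from -0.14 to 0.0083 for Prdx1 at day 6, from -0.16 to 0.083 for Prdx1 and from -0.30 to 0.051 for Prdx3 at day 12, and at day 21 from -0.19 to 0.044 for Gpx1, -0.021 to 0.12 for Prdx1, -0.015 to 0.12 for Prdx3, and -0.12 to 0.045 for Prdx5.

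Counts of all genes called were 945, 2596, 1588, and 634 at days 3, 6, 12, and 21. They were 331, 1321, 624, and 1350 with all 40 libraries and 420, 1325, and 867 at days 3, 6, and 12 with only the groups of the day. At days 3 and 21 they were 1428 and 994 with DESeq2 and 1792 and 1212 with scaling by total counts.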

Other observations

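The 2 HNKO libraries of day 21 that failed quality control differed from each other in some of the enzymes. On a scale set over all 40 libraries, Prdx3 was 5.10 log2 CPM in library 17 and 6.69 in library 18, Gpx4 was 6.29 and 6.78, and Cat was 11.23 and 10.79. Sod1 was 8.59 and 8.33, Sod2 was 6.97 and 7.01, and Txn2 was 6.28 and 6.05. Nampt was 5.82 and 5.83 log2 CPM in these libraries. Prdx1 was 8.99 and 9.13, and Gpx1 was 10.01 and 9.84. These libraries entered only the fit of all 40 libraries.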
